A study of Homo sapiens with 3 samples.

Results

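The ZNF genes of human chromosome 19 encode C2H2 zinc finger proteins, and they were examined here for the presence of YTHDC1 on chromatin. The members were the protein-coding genes of GENCODE release 44, mapped to hg19, on chromosome 19 with a symbol made of ZNF and a number. A letter may follow the number, as in ZNF324B. This gave 246 genes of the 20163 protein-coding genes annotated, after 3 read-through genes that join a ZNF symbol to another one were left out. YTHDC1 is a nuclear protein that reads N6-methyladenosine (m6A) in RNA, and the study grouped genes by its presence at transcription start sites (TSS). It was mapped by ChIP-seq in A549, an established lung adenocarcinoma line, in 3 replicates of a single group grown without knockdown. The authors pooled the replicates before calling 6368 broad peaks, so that a peak carries 1 value, its −log10 q, and no spread between replicates. Without an input, IgG or knockdown library here, a peak is a called region and not a measure of affinity, and the depth of the samples is unknown.

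C2H2 zinc finger genes form the largest family of transcription factors in human, and chromosome 19 holds many of its clusters, which arose by tandem duplication. A typical member has a short KRAB domain near its start, which recruits the corepressor TRIM28 and through it the histone methyltransferase SETDB1, and an array of fingers encoded in the last exon, which reads DNA. Many members bind and silence transposable elements, and the duplicated gene bodies themselves are known to carry the repressive histone mark H3K9me3.

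YTHDC1 peaks were found at the starts of a minority of members. A peak lay within 200 bases of an annotated TSS of 62 of the 246 genes, or 25.2% (95% Wilson interval 20.2 to 31), beside a background of 15.7% of all protein-coding genes (3163 of 20163). The neighbouring genes of the same chromosome stood near the background, with 194 of 1231 other chromosome 19 genes (15.8%). Restricted to other genes that overlap the bounds of the members' clusters, the count was 18 of 121 (14.9%, 9.62 to 22.3). Some of these genes share a peak with a member. Among ZNF genes on the other chromosomes the share was close to that of the members, with 66 of 262 (25.2%, 20.3 to 30.8). The intervals treat genes as independent draws from 1 pooled peak set, do not cover variation between experiments, and no test was made on these shares. At the canonical start alone, 52 members had a peak (21.1%, against 11.7% of all protein-coding genes).

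**Figure D1:**
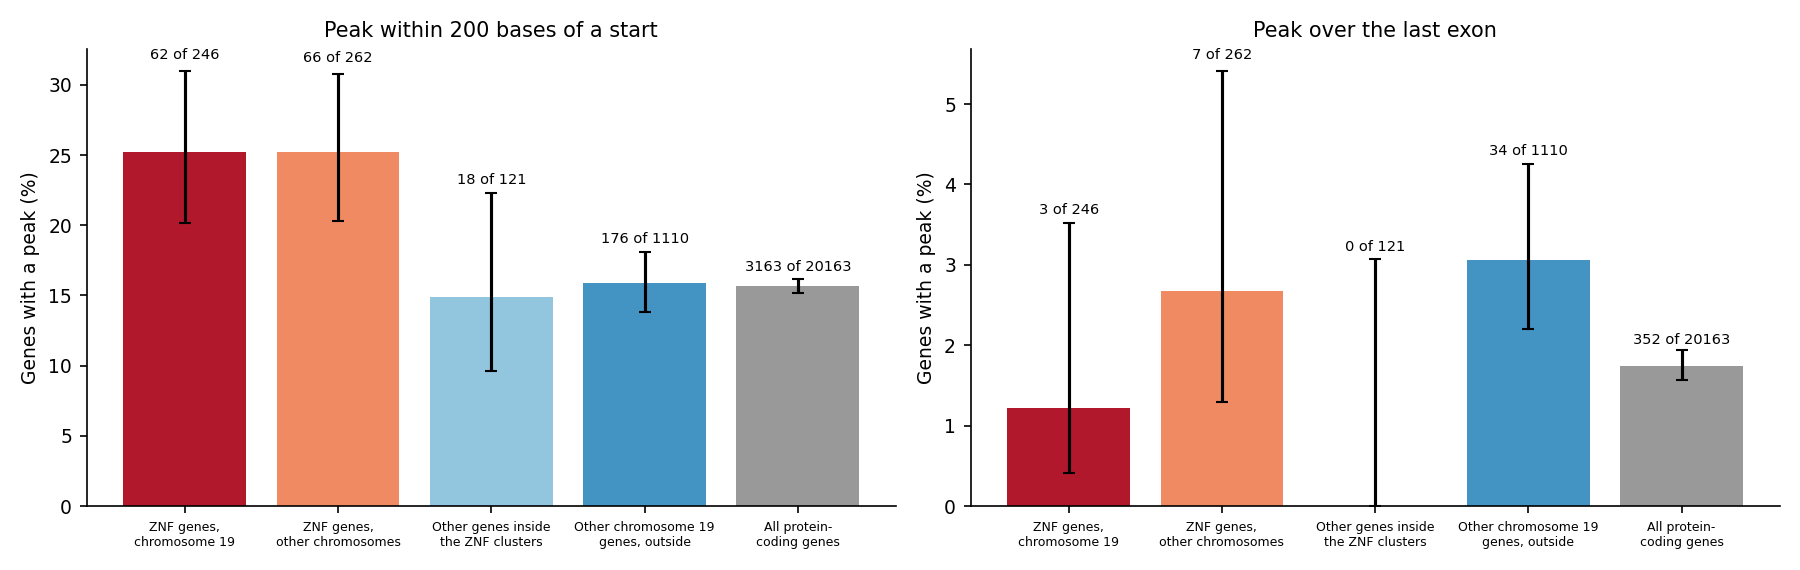
Share of genes with a YTHDC1 peak within 200 bases of a start (left, in %) and over the last exon (right, in %) for 5 gene sets, with 95% Wilson intervals as error bars and the counts above them. The ZNF sets on chromosome 19 and elsewhere both reach 25.2% at starts, whereas at the last exon the chromosome 19 ZNF genes have 3 of 246.

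The sequences around the TSS of 5 members with a peak are shown first, since they adjoin or hold the regions where YTHDC1 was called, followed by 3 members of the pericentromeric cluster that had none. Each runs from 150 bases before an annotated start to 30 bases after it, 5′ to 3′ on the strand of the gene, in hg19. Capitals mark CCGGAAG, the core of many ETS factor sites, and CCAAT, the box bound by NF-Y, on either strand. The windows are chr19:35168394-35168573 (ZNF302, plus strand), chr19:35224910-35225089 (ZNF181, plus), chr19:58892368-58892547 (ZNF837, minus), chr19:58962828-58963007 (ZNF324B, plus), chr19:58694246-58694425 (ZNF274, plus), chr19:23578244-23578423 (ZNF91, minus), chr19:20011572-20011751 (ZNF93, plus) and chr19:22193722-22193901 (ZNF208, minus).
ZNF302: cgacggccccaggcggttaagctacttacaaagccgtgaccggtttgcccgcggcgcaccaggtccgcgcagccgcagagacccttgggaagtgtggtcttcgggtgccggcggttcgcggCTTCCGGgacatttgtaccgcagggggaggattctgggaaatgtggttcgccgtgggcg
ZNF181: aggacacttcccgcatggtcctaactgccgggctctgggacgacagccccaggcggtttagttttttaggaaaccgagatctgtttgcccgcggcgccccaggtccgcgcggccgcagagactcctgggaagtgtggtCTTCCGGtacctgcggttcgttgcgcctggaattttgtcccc
ZNF837: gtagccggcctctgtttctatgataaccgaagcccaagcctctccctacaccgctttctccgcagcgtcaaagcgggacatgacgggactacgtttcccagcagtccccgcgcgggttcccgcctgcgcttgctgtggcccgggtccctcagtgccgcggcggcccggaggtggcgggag
ZNF324B: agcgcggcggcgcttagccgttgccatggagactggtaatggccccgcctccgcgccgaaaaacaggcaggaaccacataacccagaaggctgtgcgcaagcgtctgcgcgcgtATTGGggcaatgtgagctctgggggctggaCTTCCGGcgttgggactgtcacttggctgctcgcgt
ZNF274: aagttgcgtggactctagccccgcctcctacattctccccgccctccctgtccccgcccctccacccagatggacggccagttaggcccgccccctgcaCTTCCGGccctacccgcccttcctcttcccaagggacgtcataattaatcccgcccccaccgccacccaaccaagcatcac
ZNF91: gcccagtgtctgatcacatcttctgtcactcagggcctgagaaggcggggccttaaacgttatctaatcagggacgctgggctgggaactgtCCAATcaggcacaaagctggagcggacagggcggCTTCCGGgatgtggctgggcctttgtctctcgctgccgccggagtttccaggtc
ZNF93: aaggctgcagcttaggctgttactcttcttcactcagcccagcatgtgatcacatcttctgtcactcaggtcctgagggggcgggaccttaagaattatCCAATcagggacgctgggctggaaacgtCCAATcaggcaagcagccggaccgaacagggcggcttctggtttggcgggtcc
ZNF208: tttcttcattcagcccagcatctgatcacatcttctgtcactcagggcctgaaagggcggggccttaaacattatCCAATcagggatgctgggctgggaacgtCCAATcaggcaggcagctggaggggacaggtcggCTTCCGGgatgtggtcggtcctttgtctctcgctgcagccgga
CCGGAAG is found in 4 of the first 5 windows and in 2 of the 3 windows without a peak. The first 5 are not the strongest members, since ZNF432, ZNF841, ZNF114, ZNF146, ZNF565 and ZNF524 had stronger peaks than ZNF274. In a longer window, CCGGAAG was found in 43.5% of members with a start peak and 45.1% of those without. CCAAT is found in 1 of the first 5 and in all 3 of the others, which come from a single cluster where 36 of 37 members hold it in a longer window. The sequences of ZNF91 and ZNF208 shared 42 of their 169 words of 12 letters, and the longest run in common was 32 bases. For ZNF302 and ZNF181, neighbours that both had a peak, the overlap was 13 of 169 words, with a longest run of 17 bases. The called peaks covered all 180 bases of the ZNF274 window, 124 of the ZNF181 window, 39 of the ZNF837 window and 37 of the ZNF324B window, but 6 of the ZNF302 window, which fell between the 2 peaks of that gene. The ZNF446 gene, which had the strongest peak, is not shown because its window lies within a long 5′ exon of another transcript.

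The strongest YTHDC1 peak at a member's start was that of ZNF446 (chr19:58986941-58988079, 1139 bases wide), which had a −log10 q of 6.30 and its midpoint 3 bases upstream of a start. ZNF446 is the last member along the chromosome, next to the end of the long arm. ZNF302 came next with 4.67 (chr19:35168583-35169474) and had a second peak upstream, which it shared with the start of SCGB2B2. ZNF837 had a value of 3.19 (chr19:58891935-58892406) and ZNF181 one of 3.02 (chr19:35224966-35225492). ZNF302 and ZNF181 lie next to each other in the same small cluster, and both encode KRAB zinc finger proteins by the sequence pattern described further on. These 4 peaks stood above the remaining members, which all lay at or under 2.80.

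A further group of members had values between 2.13 and 2.80. ZNF432, which takes part in the repair of DNA damage, and ZNF841 shared 1 peak (chr19:52598779-52599050) with a −log10 q of 2.80. ZNF114 had 2.49 (chr19:48774460-48775059), ZNF324B had 2.48 (chr19:58962971-58963276), and ZNF146 and ZNF565 shared a peak of 2.47 (chr19:36705952-36706519). ZNF524 had 2.42, in a peak that also lay at the start of FIZ1. ZNF274, a KRAB protein that recruits SETDB1 to the 3′ ends of other zinc finger genes, itself had a start peak of 2.25 (chr19:58694214-58695174). ZNF584, ZNF787 and ZNF875 followed with 2.22, 2.18 and 2.13. In all, 17 of the 62 members had a value of 2 or more, and 12 had a value under 1.

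At the lower end the peaks came close to the calling threshold, whose lowest value in the file was 0.610. The lowest member was ZNF536, a regulator of neuronal differentiation, with 0.718, followed by ZNF607 with 0.732, ZNF784 with 0.746, ZNF586 with 0.751 and ZNF266 with 0.757. The q-values of these 5 members were all above 0.05. Of the other members fixed for description, ZNF91 and ZNF93, which silence SVA and L1 retrotransposons, had no peak at a start or over the last exon. The same was true of ZNF420, a negative regulator of p53, and of ZNF568 and ZNF208. The absence of a call does not show the absence of YTHDC1, since the depth behind the calls is unknown.

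The 62 members drew on 65 distinct peaks, or 13.9% of the 466 peaks on chromosome 19. Of these, 60 lay at the start of 1 member and 5 at the starts of 2 members, and 8 members had 2 start peaks. The shared peaks were those of ZNF432 and ZNF841, ZNF565 and ZNF146, ZNF580 and ZNF581, ZNF585B and ZNF383, and ZNF569 and ZNF570, so that the members of these pairs are not independent observations. A start of another protein-coding gene was touched by 11 of the 65 peaks, and a start of a non-coding gene by 18. In such peaks the signal cannot be assigned to one gene or the other. ZNF473, the U7 snRNP component that acts in histone mRNA processing, is an example, since its peak (chr19:50529371-50529602, −log10 q 1.39) also lay at a start of VRK3.

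The values of these peaks lay slightly above those at coding starts in general, but not above those of the most similar gene sets. Their median −log10 q was 1.44 (quartiles 1.01 and 1.95), against 1.39 for the 2998 peaks at starts of all protein-coding genes and 1.33 for all 6368 peaks. A q-value under 0.05 was found for 41 of the 65 (63.1%), against 55.6% of peaks at coding starts and 52.1% of all peaks. Taking the strongest start peak of each gene, the median was 1.44 for members, 1.52 for other chromosome 19 genes and 1.61 for ZNF genes elsewhere. In the same order, 38 of 58, 111 of 173 and 43 of 65 of these strongest peaks had a q-value under 0.05. The median width of the 65 peaks was 390 bases (228 to 1220), beside 348 bases over all peaks. The midpoint fell downstream of the nearest member start in 38 peaks and upstream in 27, with a median position of 49 bases downstream (quartiles 61 upstream and 179 downstream). It lay within 200 bases of the start in 41 peaks. Some of the other 24 still covered a start, as the peaks of ZNF546 and ZNF146 did.

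**Figure D2:**
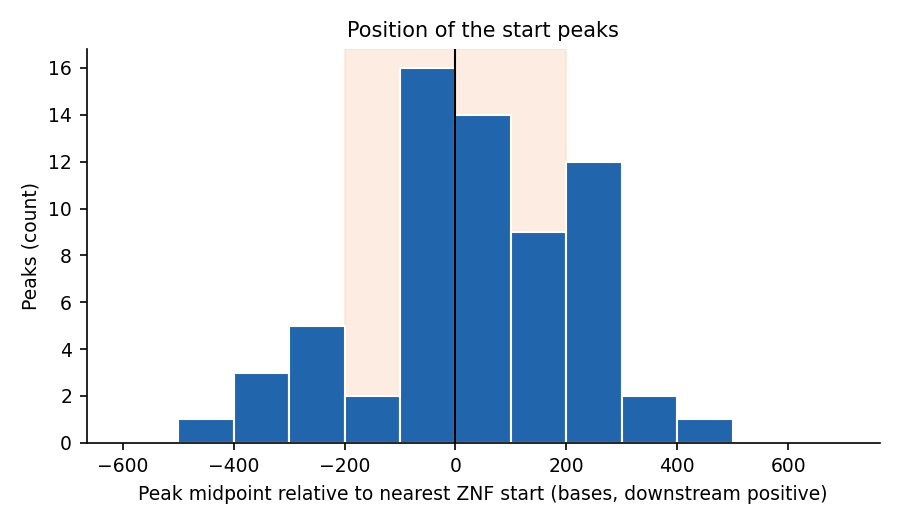
Distance in bases from the nearest annotated start of a member to the midpoint of each of the 65 start peaks, in bins of 100 bases, downstream positive. The shaded band is the window of 200 bases on both sides, which holds 41 midpoints, and more midpoints lie downstream (38) than upstream (27).

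The members next to the limit of 200 bases were few. ZNF562, ZNF134 and ZNF575 were the furthest inside it, with a peak edge 128, 157 and 164 bases from a start, and had −log10 q values of 1.44, 1.92 and 1.36. ZNF551, ZNF180 and ZNF43 were the nearest outside, at 220, 232 and 308 bases. Widening the window to 500 or to 1000 bases raised the count from 62 to 65 in both cases.

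Along the chromosome, the peaks were spread unevenly over the 20 clusters formed by members at most 500 kb apart. Of these clusters, 7 hold a single member. The long arm cluster at chr19:36673178-38307940 (cluster 10 in order, from ZNF565 to ZNF573) had start peaks at 15 of its 26 members (57.7%). The small cluster just before it, at chr19:35168544-35455133 (cluster 9), had 3 of 5, in ZNF302, ZNF181 and ZNF30. Next to the long arm end, cluster 19 (chr19:55987984-57183151) had 7 of 16 and cluster 20 (chr19:57702868-58992597) 17 of 43. Together these 4 clusters, grouped after their counts were seen, held 42 of the 62 members with a peak, or 46.7% of their 90 genes, against 12.8% of the 156 genes elsewhere (20 genes). A q-value under 0.05 was reached by 31 of the 42 and by 10 of the 20.

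In cluster 10, values ran from 0.732 for ZNF607 to 2.47 for the peak of ZNF146 and ZNF565. ZNF146 consists of zinc fingers with no KRAB domain, while its neighbour ZNF565 has one. ZNF875 (2.13), ZNF461 (2.07) and ZNF573 (1.95) followed, and ZNF420 and ZNF568 were among the 11 members of the cluster with no start peak. In cluster 20, the values ran from 0.751 for ZNF586 to 6.30 for ZNF446. It held 5 of the 15 strongest members: ZNF446, ZNF837, ZNF324B, ZNF274 and ZNF584. In cluster 19, ZNF524 (2.42) and ZNF787 (2.18) led, followed by ZNF580 and ZNF581 with a shared peak of 1.71.

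The remaining large clusters had few peaks. Cluster 6 (chr19:19779605-24312770), which flanks the centromere on the short arm and holds ZNF91, ZNF93, ZNF208 and ZNF43, had 1 start peak among 37 members, at ZNF254 (chr19:24216244-24216592, −log10 q 1.83). Cluster 4 had 2 of 25 members, ZNF653 (1.00) and ZNF564 (0.776), both with q-values above 0.05. Cluster 13 (chr19:44029649-45004576) had 2 of 23, ZNF229 (1.78) and ZNF575 (1.36). Cluster 18 (chr19:52074536-54083523) had 6 of 39, led by the peak shared by ZNF432 and ZNF841, with the other 4 at or under 1.11. Cluster 3 had 2 of 13, ZNF562 (1.44) and ZNF266 (0.757). Clusters of under 10 members together had a start peak at 10 of 24 genes, including ZNF77 (1.86), ZNF557 (0.930), ZNF507 (1.28) and ZNF546 (2.12). Genes that stand alone in their cluster, such as ZNF507, made up 4 of the 10 and 7 of the 24. The 8 clusters of 10 or more members had 52 of 222 (23.4%).

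**Figure D3:**
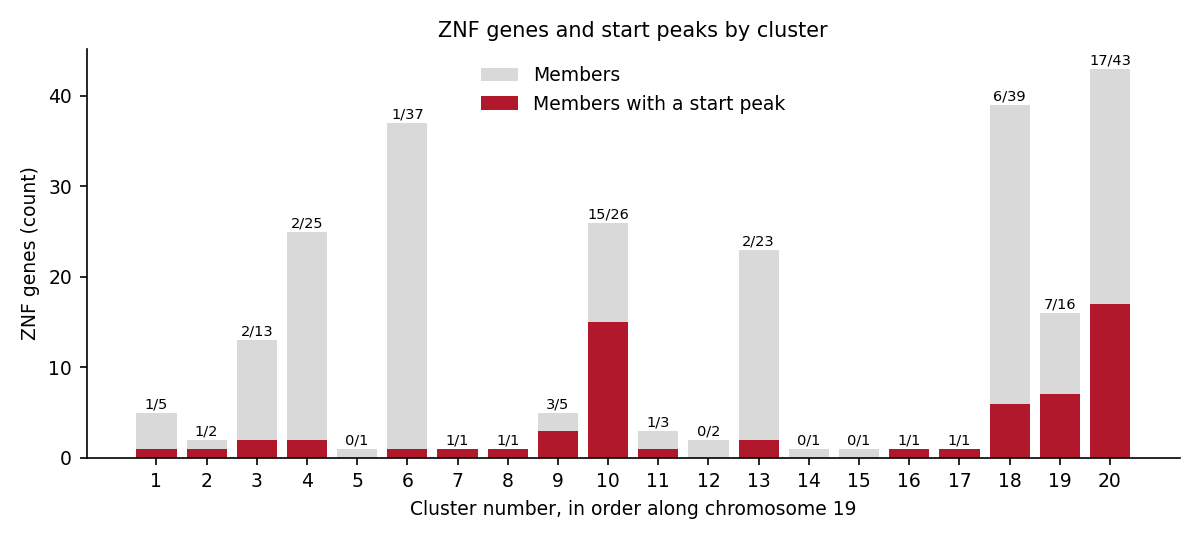
Number of ZNF genes (grey) and of ZNF genes with a YTHDC1 start peak (red) in each of the 20 clusters, in order along chromosome 19, with the counts above the bars. Cluster 10 has 15 of 26 and cluster 20 has 17 of 43, whereas cluster 6 has 1 of 37.

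**Figure D4:**
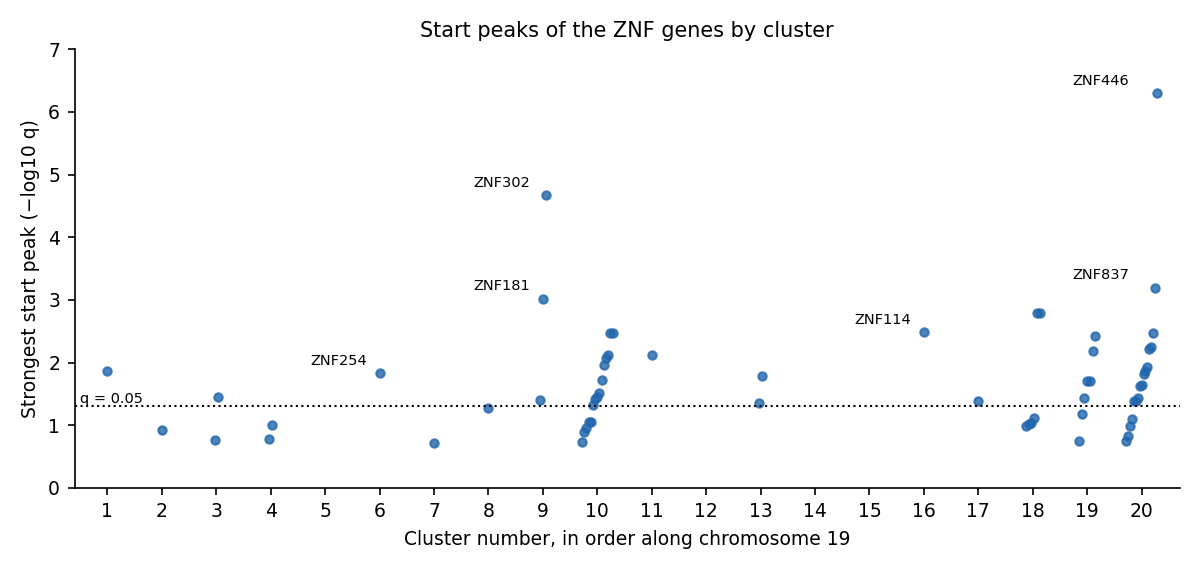
The −log10 q of the strongest start peak of each of the 62 members with one, by cluster in order along chromosome 19, with points of a cluster spread sideways in order of value and a dotted line at a q-value of 0.05. ZNF446 in cluster 20 (6.30) and ZNF302 in cluster 9 (4.67) stand above all others.

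The other protein-coding genes that overlap the bounds of the clusters differed by cluster as well. In cluster 10, 5 of the 6 other protein-coding genes had a start peak, whereas none of 14 did in cluster 3, none of 14 in cluster 18 and none of 3 in cluster 6. Cluster 20 had 5 of 23 such genes, cluster 19 had 5 of 24, cluster 4 had 2 of 13 and cluster 13 had 1 of 14. In cluster 18 the members thus had 6 peaks where the other genes had none, and in cluster 10 peaks were present in both groups. The numbers of such genes are small, and some share a peak with a member. In cluster 4 the peaks of the 2 other genes were those of ZNF653 and ZNF564.

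Repeated sequence around the starts was compared next. The reads of a ChIP-seq library are hard to place in duplicated sequence, and the share of 31-letter words with a second copy somewhere in the genome was used as a measure of it. Around the canonical start, the median of this share was 8.36% in cluster 6 and 0 over all members. Over all protein-coding genes the median was also 0, and the mean was 5.42%, against 4.09% in members. Among the other large clusters it was 0 in clusters 3, 4 and 13 and 0.270% in cluster 18, which had few start peaks. It was also 0 in clusters 10, 19 and 20, which had many. Members with no repeated word numbered 13 of 13 in cluster 3, 13 of 25 in cluster 4, 17 of 23 in cluster 13 and 18 of 39 in cluster 18. In clusters 10, 19 and 20 they numbered 22 of 26, 16 of 16 and 35 of 43. Members with no repeated word in the window had a start peak in 52 of 157 cases (33.1%), against 10 of 89 (11.2%) with at least 1 repeated word and 3 of 40 above 10% repeated. Outside cluster 6 the counts were 52 of 154 (33.8%) without and 9 of 55 (16.4%) with repeated words. In cluster 6, none of the 3 members without repeated words had a start peak. A counted peak may lie at any start and so outside the canonical window, as those of ZNF114, ZNF254 and ZNF814 did. The split by repeated words was not made over all protein-coding genes, and the part of repeated sequence in the low count of cluster 6 was not tested. Leaving cluster 6 out, 61 of 209 members had a start peak (29.2%).

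Start peaks were also split by GC content and by the number of annotated starts. The canonical start windows of members had a median GC of 61.2%, against 65.1% over all protein-coding genes. Split by GC, members had a start peak in 14 of 94 cases at 50 to 60% GC (14.9%, all genes 10.4%), in 37 of 124 at 60 to 70% (29.8%, all genes 19.6%) and in 8 of 22 at 70% or more (36.4%, all genes 19.9%). Below 50% GC the count was 3 of 6 (50%, all genes 3.18%), and the members with a peak were ZNF536, ZNF585B and ZNF114. Members with 1 or 2 annotated starts had a peak in 18.4% of cases (all genes 7.01%), those with 3 to 5 in 21.4% (13.9%), those with 6 to 10 in 30.1% (18.1%) and those with 11 or more in 33.3% (25.3%). The share of members thus lay above that of all genes in each of these 8 bands, with no test made. A gene that starts in the opposite direction within 1000 bases was present for 60 members, of which 21 had a start peak (35.0%), against 41 of the 186 others (22.0%). The split by such a gene was not made over all protein-coding genes, so it cannot be read as particular to the members.

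**Figure D5:**
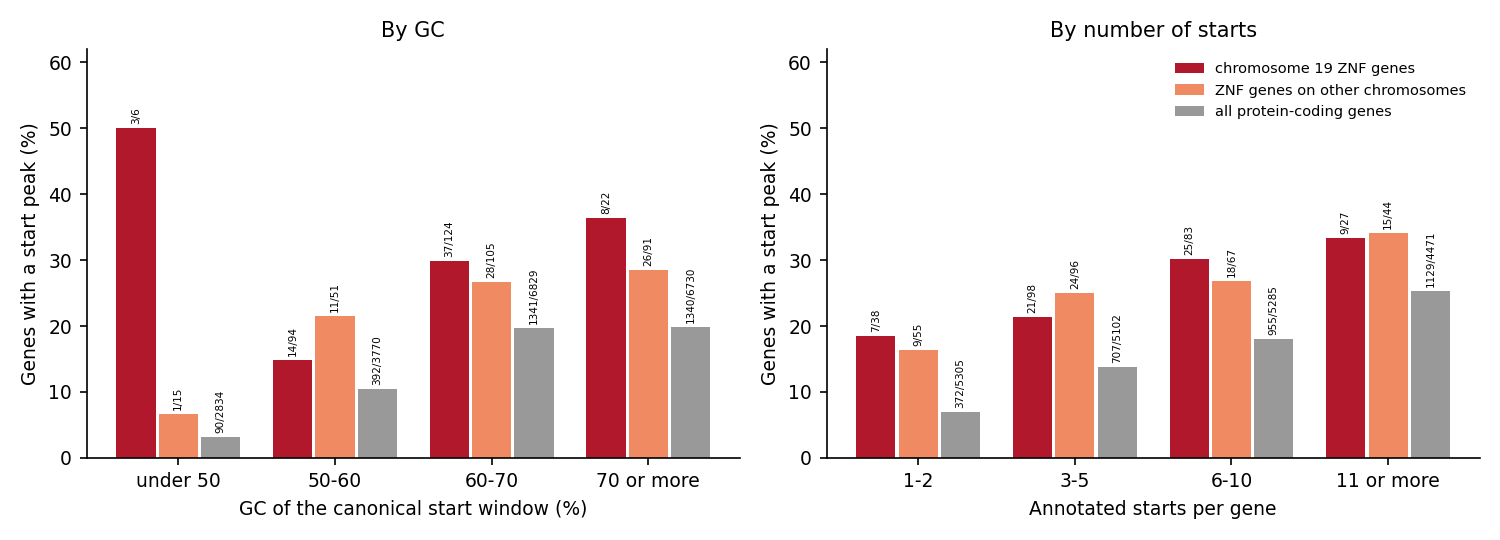
Share of genes with a start peak (in %) by GC of the canonical start window (left) and by number of annotated starts (right), for chromosome 19 ZNF genes (red), ZNF genes on other chromosomes (orange) and all protein-coding genes (grey), with counts above the bars. The red bars are higher than the grey ones in all 8 bands, with 14.9% against 10.4% at 50 to 60% GC, 36.4% against 19.9% at 70% or more, and 50% (3 of 6 genes) against 3.18% below 50%. A counted peak may lie at any start and so outside the window whose GC is given.

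The letters of the promoters were counted in the window from 250 bases before to 50 bases after the canonical start, on both strands. CCGGAAG was found in 44.7% of members, against 14% of all protein-coding genes, 31.7% of ZNF genes elsewhere and 15.2% of other chromosome 19 genes. CCAAT was found in 52.8% of members (all genes 35.9%), GGACT, 1 form of the m6A consensus when it lies in RNA, in 58.5% (45.1%), and ACTACAA in 5.69% (2.99%). TATAAA, the TATA box, was present in 2.85% (9.77%), and GCATGCGC, a core of the NRF1 site, in 4.47% (4.26%). ZNF genes elsewhere had CCAAT in 41.6%, GGACT in 46.9%, ACTACAA in 4.96%, TATAAA in 3.05% and GCATGCGC in 5.73%. No word on the list is contained in another, and a match is only a run of letters.

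A start peak was present at 27 of the 110 members with CCGGAAG (24.5%) and at 35 of the 136 without it (25.7%). Over the other protein-coding genes the shares were 25.8% with it and 14% without. For CCAAT, members with the box had a start peak in 21 of 130 cases (16.2%) and those without in 41 of 116 (35.3%), while over the other genes the shares were 14.2% and 16.4%. The box was unevenly spread over the clusters, and not in step with their start peaks. It was found in 36 of the 37 members of cluster 6 and 23 of the 25 of cluster 4, which had few start peaks, and in 6 of the 26 of cluster 10, which had many. Clusters 13 and 18 had few start peaks and the box in 4 of 23 and 11 of 39 members, while cluster 20 had many and the box in 30 of 43. Outside cluster 6 the shares were 21.3% (20 of 94) with and 35.7% (41 of 115) without. Within cluster 20 they were 9 of 30 and 8 of 13, and within cluster 18 they were 1 of 11 and 5 of 28. Cluster 13 had 0 of 4 and 2 of 19, and cluster 19 had 2 of 5 and 5 of 11. Within cluster 10 they ran the other way, with 5 of 6 and 10 of 20. These splits were read after the counts were known, and a counted peak may lie at another start than the canonical one.

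The domains of the encoded proteins were then set beside the start peaks. Canonical coding sequences were translated for 245 members, and each had at least 1 finger, with a median of 12 and up to 36 fingers. That of ZNF274 was left out, since it gave internal stop codons when read from its first annotated coding base. A strict KRAB pattern was found in 165 members and a looser one, added because the strict one missed most members of cluster 13, in 182. A start peak was present at 32 of the 182 members with the looser pattern (17.6%) and at 29 of the 63 without it (46.0%). With the strict pattern the counts were 31 of 165 (18.8%) and 30 of 80 (37.5%). Outside cluster 6 the counts with the looser pattern were 31 of 149 (20.8%) and 29 of 59 (49.2%). Within single clusters they were 10 of 19 and 5 of 7 in cluster 10, 11 of 35 and 5 of 7 in cluster 20, 2 of 32 and 4 of 7 in cluster 18, and 1 of 4 and 6 of 12 in cluster 19. The sequence patterns miss diverged boxes, such as that of ZNF568, so that the set without a pattern is not free of KRAB proteins. How many of the 29 members with a start peak and no looser pattern encode a KRAB box was not determined. These shares thus compare pattern matches and not KRAB proteins.

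The number of fingers showed a similar order. Members with 4 or fewer fingers had a start peak in 5 of 9 cases and those with 5 to 9 in 17 of 53 (32.1%). The first 5 were ZNF446, ZNF114, ZNF524, ZNF580 and ZNF581. They are not independent, as ZNF580 and ZNF581 share a peak and lie with ZNF524 in cluster 19. With 10 to 14 fingers the count was 23 of 108 (21.3%), and with 15 or more it was 16 of 75 (21.3%). ZNF446, ZNF114 and ZNF524, all among the 15 strongest, had 3, 3 and 4 fingers, while ZNF841 had 20.

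The 3′ end, where the fingers are encoded, was examined in the same way. A peak overlapped the last exon of the canonical transcript in 3 members (1.22%, 95% Wilson interval 0.416 to 3.52), beside a background of 1.75% of all protein-coding genes (352), which lies inside that interval. With peaks at starts left out, the counts were 2 members (0.813%) and 210 of all genes (1.04%). The members thus had last exon peaks at a share near the background. The share, with peaks at starts counted, was 2.67% of ZNF genes elsewhere and 2.76% of other chromosome 19 genes. Last exons of members are long, with a median of 3301 bases against 1381 over all genes, and they held 3.29 peaks per Mb against 8.16, or 2.20 against 4.63 with peaks at starts left out. Of the 338 peaks over last exons of all genes, 192 remained in that second count. Repeated words made up a median of 13.4% of members' last exons and 0.107% of those of all genes. The part of repeated sequence in these densities was not tested.

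The 3 members were ZNF180, ZNF728 and ZNF814. ZNF180, at the end of cluster 13, had a peak of 920 bases (chr19:44980609-44981528) with a −log10 q of 2.89, which covered 10 of its 12 fingers. ZNF728, in cluster 6, had a peak of 267 bases (chr19:23158964-23159230) with a −log10 q of 1.22, a q-value above 0.05, over 3 of its 14 fingers. Neither gene had a peak within 200 bases of a start. In ZNF814 the peak (chr19:58382651-58382971, −log10 q 0.825) lay outside the coding part of the last exon and was at the same time the peak at another annotated start of that gene. Repeated words made up 1.36% of the last exon of ZNF180, and 29.4% of that of ZNF728 and 31% of that of ZNF814. The exon with most fingers gave the same count, 3 of 245 members.

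Finger units below the ZNF180 and ZNF728 peaks are given to show the repeated coding sequence under them, with the codons of the metal-binding cysteines and histidines in capitals, 5′ to 3′ on the minus strand of hg19. They lie at chr19:44981405-44981467, chr19:44981321-44981383 and chr19:44981237-44981299 (ZNF180, fingers 3, 4 and 5) and at chr19:23159137-23159199 and chr19:23158969-23159031 (ZNF728, fingers 4 and 6).
ZNF180 finger 3: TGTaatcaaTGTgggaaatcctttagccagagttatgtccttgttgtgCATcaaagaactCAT
ZNF180 finger 4: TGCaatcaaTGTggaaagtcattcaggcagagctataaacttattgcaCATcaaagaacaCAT
ZNF180 finger 5: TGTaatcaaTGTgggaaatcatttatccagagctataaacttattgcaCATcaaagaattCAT
ZNF728 finger 4: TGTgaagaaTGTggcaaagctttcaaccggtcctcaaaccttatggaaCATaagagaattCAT
ZNF728 finger 6: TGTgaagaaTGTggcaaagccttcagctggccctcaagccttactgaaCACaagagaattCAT
Between fingers of ZNF180, 49 to 55 of the 63 bases were identical. Fingers 4 and 6 of ZNF728 had 55 of 63 bases in common, and fingers of the different genes had 39 to 45.

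The 246 members are accounted for as follows. A start peak was present at 62, of which ZNF814 also had it over the last exon, and ZNF180 and ZNF728 had a peak over the last exon only. ZNF43 and ZNF551 had neither, but a peak elsewhere in the gene, with −log10 q values of 1.11 and 1.12. The remaining 180 members had no peak at any start or within the gene.

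Of 12 genes whose products act with KRAB zinc finger proteins, 2 had a start peak. TRIM28, the corepressor bound by the KRAB domain and itself on chromosome 19, had a peak at an alternative start (chr19:59056378-59056684, −log10 q 1.95) with its midpoint 1100 bases downstream of the canonical start. CBX1, a heterochromatin protein that binds H3K9me3, had one on chromosome 17 (46178261 to 46178492, −log10 q 1.16), with the midpoint 464 bases downstream. The methyltransferase SETDB1 and its cofactor ATF7IP had none, nor had the heterochromatin proteins CBX3 and CBX5. The HUSH complex genes MPHOSPH8, TASOR and PPHLN1, the associated MORC2, and the histone H3.3 deposition factors ATRX and DAXX also had no start peak. The share, 2 of 12 genes, is near the background of 15.7%.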

How the data were processed

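YTHDC1 ChIP-seq of A549 cells was used (3 samples, 1 group). Per the study's methods the authors sheared crosslinked chromatin, aligned reads to hg19, merged the alignments of the 3 replicates and ran MACS2 in broad mode (q-value 0.1, broad cutoff 0.25). The methods name Bowtie2 whereas BWA is listed in the submitters' processing notes, which leaves the aligner unsettled. The deposited value of each peak is read as −log10 of its q-value, since the lowest, 0.610, lies just above 0.602, −log10 of the broad cutoff. The peak names imply that regions were merged, and how is not given in the sources used here, nor is a control library for the calling.

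Start peaks came within 200 bases of any start (an overlap of 1 base or more with that window) in GENCODE release 44 on GRCh37, the assembly of the peaks. The last exon was that of the canonical transcript or, without one, of the coding transcript with the longest coding sequence. Members at most 500 kb apart formed a cluster. Sequences were read from the GRCh37 assembly. KRAB boxes and fingers were found by protein patterns in translated sequences, and repeated words have 31 letters (the count was checked on simulated sequence). Named genes were the 15 members with the highest −log10 q, the 2 highest of each cluster, the 5 lowest, those with a last exon peak only, the 3 nearest to the limit on each side and 6 fixed genes. Others were named after their values were seen. The members and lists were chosen with earlier results of these data known. Shares have 95% Wilson intervals, which cover counting only, and no test was made, as there are no replicate values and no second condition. Python 3.11.15, pandas 2.3.3, scipy 1.17.1, numba 0.67.0 and pysam 0.24.0 were used.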

Additional observations from a re-analysis of the deposited data

How the results depend on the processing

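The number of members with a start peak fell from 62 to 41 with peaks of a q-value under 0.05, to 40 with peaks above the median −log10 q, and to 41 with peaks whose midpoint was inside the window. The last setting also left 41 of the 65 peaks. Over all protein-coding genes the counts fell from 3163 to 1806 with a q-value under 0.05 and to 1741 above the median. The members' share stayed above that of all genes in each of these settings, with 16.7% against 8.96%, 16.3% against 8.63%, and 16.7% against 10.8%. Windows of 500 and 1000 bases gave 26.4% against 18.6% and 20.0%, and counting the 3 read-through genes still gave 62. Peaks over the last exon fell from 3 to 1 with a q-value under 0.05 and above the median, which kept ZNF180. The exon with most fingers, an alternative chosen after seeing the data, gave 3. A gap of 250 kb or 1 Mb in place of 500 kb gave 25 or 16 clusters in place of 20.

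Leaving out replicates could not be run, because the replicates were pooled before peak calling. No paired analysis was possible because there is 1 group and no value per replicate. The unknown depth limits every count of genes without a peak, and without a control library a start peak cannot be told apart from signal that such a library would also show.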
